A study of Rattus norvegicus with 111 samples.

Results

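The 200 genes described here are those whose level most exceeded that of the mother's liver in the fetal liver of vehicle-treated rat pregnancies, followed across oral doses of 2 perfluoroether carboxylic acids, PFO5DoA and PFO4DA. They are 200 of 20309 ranked genes. The ranking took the mean of log2(CPM + 1), where CPM is the count of a gene scaled to a common library total, in the fetal minus the maternal libraries of the vehicle controls of both chemicals (11 dams), and kept the 200 largest differences. A further 2 genes were left out of the ranking by the same rule. The genes were thus selected on the control libraries, and their fetal excess in controls is a description for which no test is given.

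Time-mated Sprague-Dawley rats received vehicle (0.5% Tween-80) or a chemical by mouth from gestational day 18 to 22, and liver RNA of each dam and of her fetuses was measured by TempO-Seq, a targeted assay in which probe pairs joined on their RNA target are counted by sequencing. PFO5DoA carries 1 more difluoromethoxy unit in its ether chain than PFO4DA. The PFO5DoA dams analysed were 5 at 0, 2 at 0.1, 3 at 0.3, 3 at 1, 4 at 3, 4 at 10 and 4 at 30 mg/kg/d, and the PFO4DA dams were 6 at 0 and 4 at each of 0.3, 1, 3, 10, 30 and 62.5 mg/kg/d. At 30 mg/kg/d of PFO5DoA the fetal libraries numbered 3, and the labels report that dams of that dose weighed less than controls by the last day, with signs of fetal toxicity in a dam they do not identify. The fetus was exposed through the mother in every group, and the controls carried the vehicle.

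The columns of the count tables name the dam, and through her the chemical and dose, but not the life stage. Stage was therefore assigned from the values: of the 2 libraries of a dam, the one whose profile correlated more closely with the only library of dam 2286, which the labels give as maternal, was called maternal and the other fetal. Over 54 dams, r was 0.943 to 0.988 for the libraries called maternal and 0.861 to 0.923 for those called fetal, and the narrowest margin within a dam was 0.0524. The words fetal and maternal mean this assignment throughout, and no table pairs the files' Ensembl identifiers with gene names (0 of 20311 matched), so liver, blood-cell and sex markers could not be checked. Dam 2279, a control, was dropped with both of her libraries, of which 1 held only 45504 counts. The other 109 libraries held 7133025 to 15254954 counts (PFO5DoA) and 7192247 to 12189322 counts (PFO4DA). The number of fetuses behind a fetal library is not given in the sources used here.

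Before birth the mammalian liver is a site of blood-cell formation as well as a metabolic organ, and its hepatocytes express a fetal programme of secreted and growth-related proteins that is shut down around birth and in postnatal life. Blood-cell formation moves to the bone marrow over the same period, so a comparison of fetal with adult liver mixes the state of the hepatocytes with the make-up of the tissue. Perfluoroalkyl and perfluoroether acids are known to activate nuclear receptors of the liver, PPAR-alpha above all, and to cross the placenta. Since the tissue was measured in bulk, fewer cells of a type and less RNA per cell cannot be told apart in any fall described below.

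In controls the fetal excess of the 200 genes ranged from 3.71 to 9.08 on the log2(CPM + 1) scale, with a median of 4.64. The gene just inside the list had a difference of 3.71 and the gene just outside 3.70. The identifiers of rank 15 and 16 had identical control levels and identical changes at the highest doses. They are counted as separate genes throughout. All 200 were higher in the fetal than in the maternal library of every one of the 11 control dams, and for 198 the lowest fetal library stood above the highest maternal one. Median control levels spanned 14.3 to 89053 CPM in fetal liver, and 19 genes reached 1000 CPM, 66 lay between 100 and 1000 CPM and 115 lay under 100 CPM. Maternal medians ran from 0 to 1014 CPM, with 97 genes under 1 CPM and 34 at 10 CPM or more, so the list joins genes that were almost silent in the mother to genes that she expressed as well. Probe efficiency differs between genes, and these levels therefore rank no gene against another. Between control fetuses the SD of log2(CPM + 1) had a median of 0.39, and 7 genes exceeded 1.

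Together the 200 genes took a large part of the fetal signal. They made up 19.6% to 27.6% of all counts in the 5 control fetal libraries of PFO5DoA (mean 22.9% ± 2.98, SD) and 17.3% to 27.7% in the 6 of PFO4DA (20.6% ± 3.73). At 30 mg/kg/d of PFO5DoA the 3 fetal libraries held 13.2%, 14.0% and 22.6%. The first 2 of these lay below every control, while the library of dam 2285 lay among the controls. In the 10 mg/kg/d group the share was 17.2% to 22.1%, and at 62.5 mg/kg/d of PFO4DA it was 19.5% to 26.9%, both overlapping the controls. Most of this sum came from few genes: the 10 most abundant gave 18.9% ± 3.11 of the PFO5DoA control counts and the other 190 gave 4.00% ± 0.51. In the 30 mg/kg/d fetuses the 190 gave 3.26% to 3.92%, which overlapped the control range of 3.47% to 4.85%. In maternal liver the 200 genes held 0.306% to 0.497% of the PFO5DoA control counts and 0.431% to 0.510% at 30 mg/kg/d, ranges that overlapped. The 10 most abundant genes overlapped there too (0.217% to 0.389% in controls, 0.278% to 0.329% at 30 mg/kg/d). The other 190 did not: their maternal share was 0.0854% to 0.108% in controls, 0.129% to 0.140% in the 10 mg/kg/d dams and 0.141% to 0.181% in the 30 mg/kg/d dams. The 3 mg/kg/d dams spanned 0.0789% to 0.136%, and a PFO4DA control reached 0.128%. Few genes can carry such a sum. The maternal mean of log2(CPM + 1) over the 200 genes overlapped (1.60 to 1.90 in controls, 1.68 to 1.90 at 30 mg/kg/d). The median log2 fold change of the 137 genes tested there at 30 mg/kg/d was -0.38, beside -0.07 over all genes. Scaled by library totals these medians were -0.17 and 0.17.

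**Figure D1:**
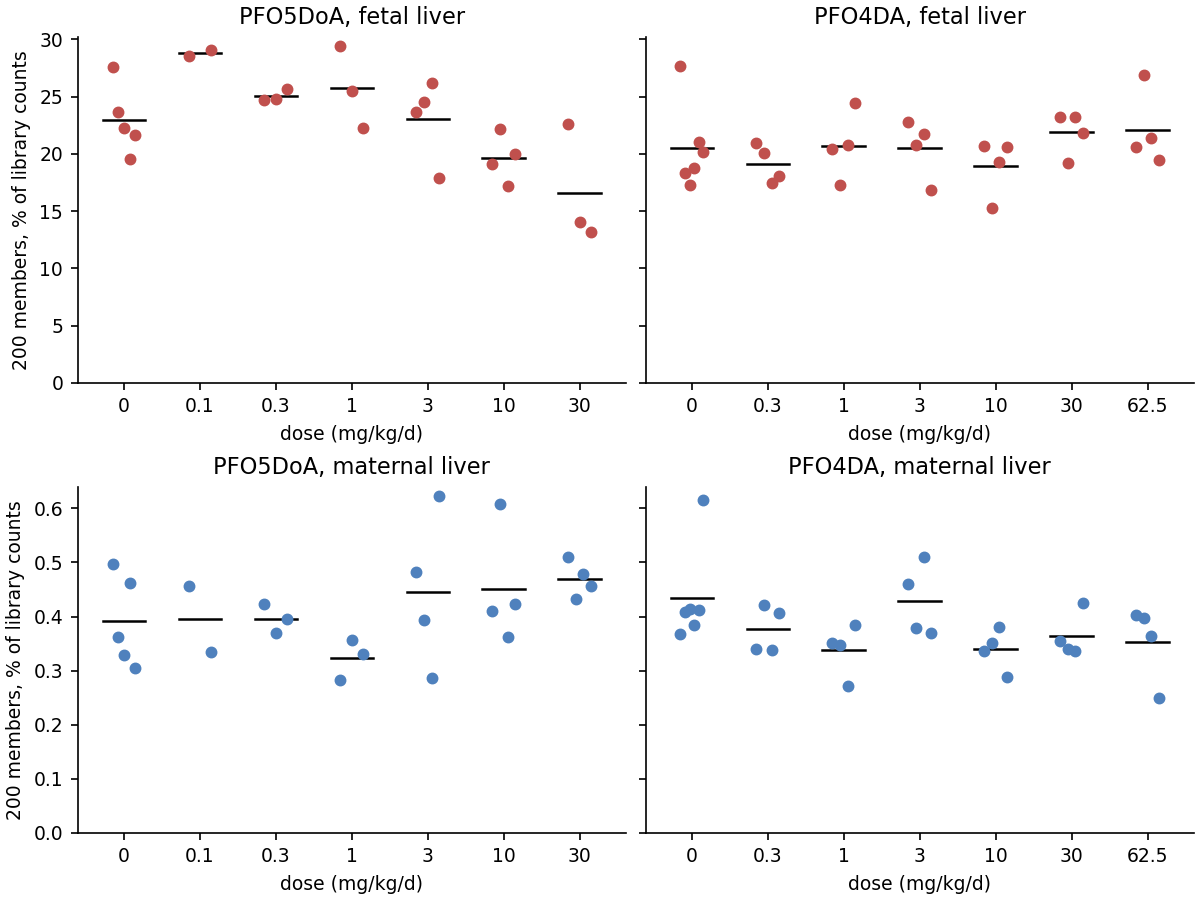
Share of each library's counts taken by the 200 genes (y axis, %) against dose (x axis, mg/kg/d, evenly spaced), for fetal liver (upper panels) and maternal liver (lower panels, a far smaller scale); points are libraries and horizontal lines are group means. Of the 3 fetal libraries at 30 mg/kg/d of PFO5DoA, 2 lie below all controls at 13.2% and 14.0%, and the PFO4DA groups overlap their controls.

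The question at each dose was how many of the genes differed from the controls, tested with edgeR's quasi-likelihood test fitted over all genes (Benjamini-Hochberg adjusted p under 0.05). Under PFO5DoA many more of the genes fell than rose. In fetal liver at 30 mg/kg/d, 95 of the 200 were lower and 4 higher, against 16.1% lower and 13.8% higher among all 11509 genes tested (29.9% in all). Their median log2 fold change was -0.66, beside -0.05 over all genes. The 10 mg/kg/d group had 24 lower and 3 higher (14.7% of all genes called, 7.68% lower and the rest higher). The 3 mg/kg/d group had 13 lower and 2 higher (7.08% of all, 3.10% lower and 3.98% higher), and the 1 mg/kg/d group 3 lower and 2 higher (2.40% of all, 0.660% lower and 1.74% higher). In the 0.3 mg/kg/d group edgeR called 0 members (0.113% of all genes, 0.113% higher and 0% lower), with 7 at an unadjusted p under 0.05 and 0 called by DESeq2. These comparisons use the control libraries that chose the genes, so they are not independent of that choice.

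The falls accumulated with dose. All 13 genes that were lower at 3 mg/kg/d and 22 of the 24 in the next dose group were lower at 30 mg/kg/d as well, in comparisons that share their controls. Across the doses 97 genes fell at 1 or more, 5 rose, 98 were called nowhere, and 0 did both. The same counts over all genes are not given, and the doses share their controls, so nothing is read from the 0. Of the 95 falls at 30 mg/kg/d, 44 were under 2-fold, 32 were 2-fold to 4-fold, 11 were 4-fold to 8-fold and 8 were larger. The fall was not limited to 1 level of expression: 59 of the 115 genes under 100 CPM in control fetuses, 29 of the 66 between 100 and 1000 CPM and 7 of the 19 above were lower at 30 mg/kg/d. The control libraries set these classes as well as the comparison. In the slopes without controls, described below, 56, 34 and 7 of the classes were lower. No share of all genes at the same levels is given, so the classes are not compared with each other. Median log2 changes of these classes at 30 mg/kg/d were -0.72, -0.60 and -0.52.

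**Figure D2:**
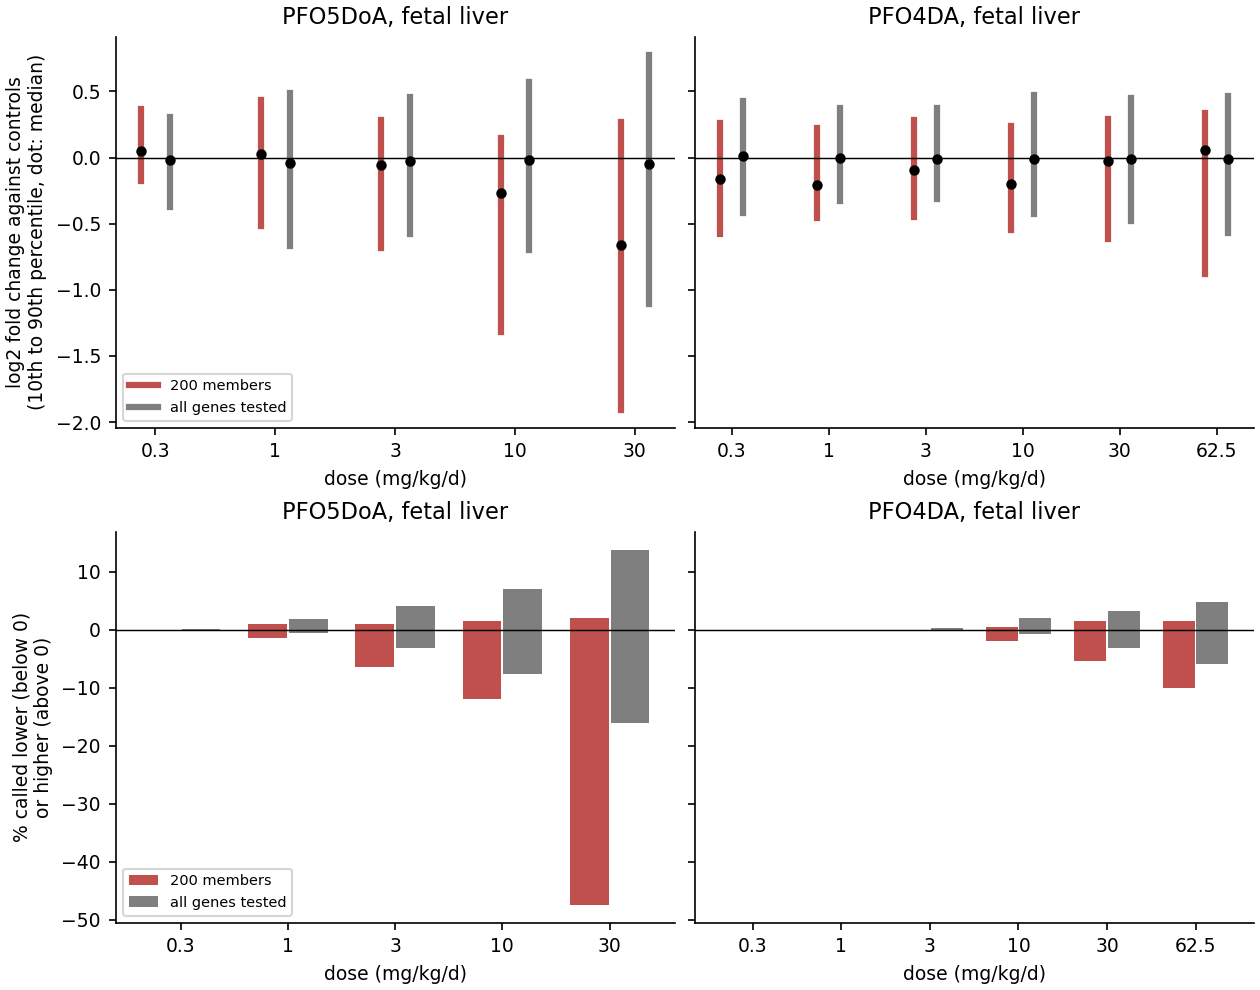
Fetal liver against controls by dose (x axis, mg/kg/d). Upper panels give the 10th to 90th percentile (bars) and median (dots) of the log2 fold change of the 200 genes (red) and of all genes tested (grey), and lower panels give the percentage called lower (below 0) or higher (above 0); at 30 mg/kg/d of PFO5DoA 47.5% of the 200 genes were lower, beside 16.1% of all genes.

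A test that uses none of the libraries behind the ranking gave a like count. It fits a slope on log2 dose over the 17 dosed PFO5DoA fetuses from 0.3 to 30 mg/kg/d, with no control. By edgeR, 97 of the 200 genes had a negative slope and 5 a positive one, against 16.6% and 17.5% of the 11371 genes tested (34.1% in all), and the median slope was -0.10 log2 units per doubling of dose beside 0.00 over all genes. Of the 95 genes that fell at 30 mg/kg/d, 82 were among the 97. The dams' identifiers form 2 consecutive runs, each of which begins with controls; the labels do not call these a batch. With the run as a covariate, the slope was negative for 32 genes and positive for 1, beside 8.26% and 7.58% of all genes. The 0.3 and 1 mg/kg/d dams all belong to the first run and the 30 mg/kg/d dams all to the second, so for those doses run and dose can be separated only through the 3 and 10 mg/kg/d dams. Within the second run alone, 41 genes were lower and 3 higher at 30 mg/kg/d (7.64% and 7.40% of all genes).

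The size of these counts rested on few libraries. Without the fetal library of dam 2288 the count lower at 30 mg/kg/d was 51 (9.81% of all genes), and without that of dam 2287 it was 58 (11.3%), whereas without dam 2285 it was 95 (13.2%). Scaling by library totals, without edgeR's TMM factors, moved the median of all genes at 30 mg/kg/d by 0.27, and 53 genes were then lower and 10 higher, beside 8.70% and 22.3% of all genes. Relative to the median of all genes, the median of the 200 was -0.61 under TMM and -0.61 under library totals. A change of scaling moves all genes nearly alike, so this likeness was fixed in advance and nothing is read from it. For the slopes over dosed dams library totals gave 29 negative and 19 positive, beside 6.36% and 40.9% of all genes.

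Most of the genes kept their place at the top of the ranking. Repeating the ranking within each dose group, 187 of the 200 genes stood among the top 200 at 0.3 mg/kg/d of PFO5DoA, 161 in the 10 and 156 in the 30 mg/kg/d group, where the PFO5DoA controls alone gave 189. For PFO4DA the numbers were 190 in its controls, 182 in the 30 and 176 in the 62.5 mg/kg/d group. The groups differ in size, and the number was 163 for the 2 dams of the 0.1 mg/kg/d group. At 30 mg/kg/d of PFO5DoA the fetal excess was smaller than in controls for 145 genes, by over 1 log2 unit for 39, and larger by over 1 for 9. It fell below 1 for 3 genes, and for 2 of them the maternal mean was the higher. Its median over the 200 genes was 4.39, beside 4.67 in the PFO5DoA controls. The controls chose the genes, so a smaller excess and a lower rank count in any other group follow in part from that choice, and nothing is read from them.

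Individual genes are given by identifier for the 2 largest falls and the 2 largest rises in fetal liver at 30 mg/kg/d of PFO5DoA, and otherwise by their rank in the control difference (1 is the largest). Their roles are not described, since the identifiers could not be paired with names. ENSRNOG00000069588 (rank 187) fell furthest. Its level in the 5 control fetuses was 17.4, 20.3, 20.7, 25.9 and 32.1 CPM. The 1 mg/kg/d fetuses of PFO5DoA had 3.83, 3.94 and 5.63 CPM and those given 3 mg/kg/d 1.04, 1.31, 2.43 and 5.79 CPM. All 7 of these libraries lay below the lowest control, and the edgeR log2 fold changes were -2.22 (SE 0.45, adjusted p = 0.0077) and -3.05 (SE 0.43, adjusted p = 6.06e-05). The 4 libraries of the 10 mg/kg/d group held 10 counts and the 3 of the 30 mg/kg/d group 2 counts, against 1214 in the control libraries. The level was thus 100.5-fold lower in the former (95% exact counting interval 54.5 to 210.1) and 348-fold lower in the latter (96.0 to 2874), intervals that cover counting error only. Maternal libraries of this chemical did not exceed 0.561 CPM at any dose, and all 5 maternal controls were at 0.

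Under PFO4DA the same gene fell at a higher dose. Its 6 control fetuses ranged from 3.14 to 31.6 CPM with a median of 11.5. The 30 mg/kg/d fetuses had 2.13, 2.78, 5.15 and 5.53 CPM, which overlapped the controls (edgeR log2 fold change -1.77, SE 0.60, adjusted p = 0.0787). Those given 62.5 mg/kg/d had 0.116, 0.17, 0.628 and 2.33 CPM, all below the controls, with a log2 fold change of -4.14 (SE 0.75, adjusted p = 3.06e-04).

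ENSRNOG00000013932 (rank 41) exchanged its stages. Control fetuses of PFO5DoA held 82.7, 144.6, 147.8, 154.0 and 157.8 CPM. At 1 and 3 mg/kg/d it did not pass the test, and at 10 mg/kg/d the fetuses had 1.15, 21.2, 41.7 and 44.5 CPM. Values of 0.695, 2.87 and 3.88 CPM followed at 30 mg/kg/d, and every library at 10 and 30 mg/kg/d stood below the lowest control. By edgeR the log2 fold changes were -2.45 (SE 0.61, adjusted p = 0.0108) and -6.07 (SE 0.88, adjusted p = 4.11e-05). With the dams of the second run alone the change at 30 mg/kg/d was -5.79 and the adjusted p 0.0537. In the mothers the same gene went up. Maternal controls had 0.56 to 2.21 CPM, the 10 mg/kg/d dams 4.28 to 9.98 CPM and the 30 mg/kg/d dams 4.00, 12.8, 17.7 and 18.3 CPM, which by edgeR was 3.08 higher on the log2 scale at the last dose (SE 0.43, adjusted p = 7.12e-06). The gap between the stages was 5.96 in controls and -1.99 at 30 mg/kg/d. Under PFO4DA at 62.5 mg/kg/d the fetal change was -1.53 (SE 0.31, adjusted p = 9.80e-04), and the maternal change did not pass the test.

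ENSRNOG00000010830 (rank 76) rose with both chemicals, from 1 mg/kg/d of PFO5DoA and from 10 mg/kg/d of PFO4DA. Its 5 PFO5DoA control fetuses had 88.7, 112.8, 114.1, 146.6 and 169.8 CPM. Levels of 212.6, 253.9 and 267.4 CPM were found at 1 mg/kg/d and of 345.9, 364.1 and 487.7 CPM at 30 mg/kg/d, all above the highest control. The edgeR log2 fold change was 1.11 at 1 mg/kg/d (SE 0.18, adjusted p = 8.04e-04), 1.33 at 3, 1.55 at 10 and 1.41 at 30 mg/kg/d (SE 0.18, adjusted p = 4.78e-06), so it did not increase between the last 2 doses. PFO4DA gave 1.04 at 10 mg/kg/d, 1.06 at 30 and 1.27 at 62.5 mg/kg/d (SE 0.18, adjusted p = 4.32e-06), where the fetuses held 185.9, 315.3, 327.5 and 336.3 CPM against 88.5 to 122.8 CPM in controls. The 2 chemicals' changes at 30 mg/kg/d differed by 0.34 (95% interval -0.18 to 0.86, 1.96 SE either side; adjusted p = 0.441). In the mothers it stayed between 1.59 and 5.83 CPM in PFO5DoA controls and at 30 mg/kg/d.

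ENSRNOG00000016581 (rank 184) was the other large rise. The control fetuses had 19.3, 25.3, 34.7, 34.8 and 41.2 CPM, and the fetuses at 30 mg/kg/d of PFO5DoA 70.9, 93.4 and 134.0 CPM, without overlap (edgeR log2 fold change 1.42, SE 0.25, adjusted p = 1.69e-04). The 10 mg/kg/d group was 0.78 higher (adjusted p = 0.0272) and 3 of 4 fetuses exceeded the controls. Over the dosed dams alone its slope was 0.15 per doubling (adjusted p = 0.0434), a call that was lost with the dam run as a covariate (adjusted p = 0.168). The PFO4DA fetuses at 62.5 mg/kg/d, at 37.2 to 49.6 CPM, lay within their controls' 25.4 to 61.1 CPM.

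**Figure D3:**
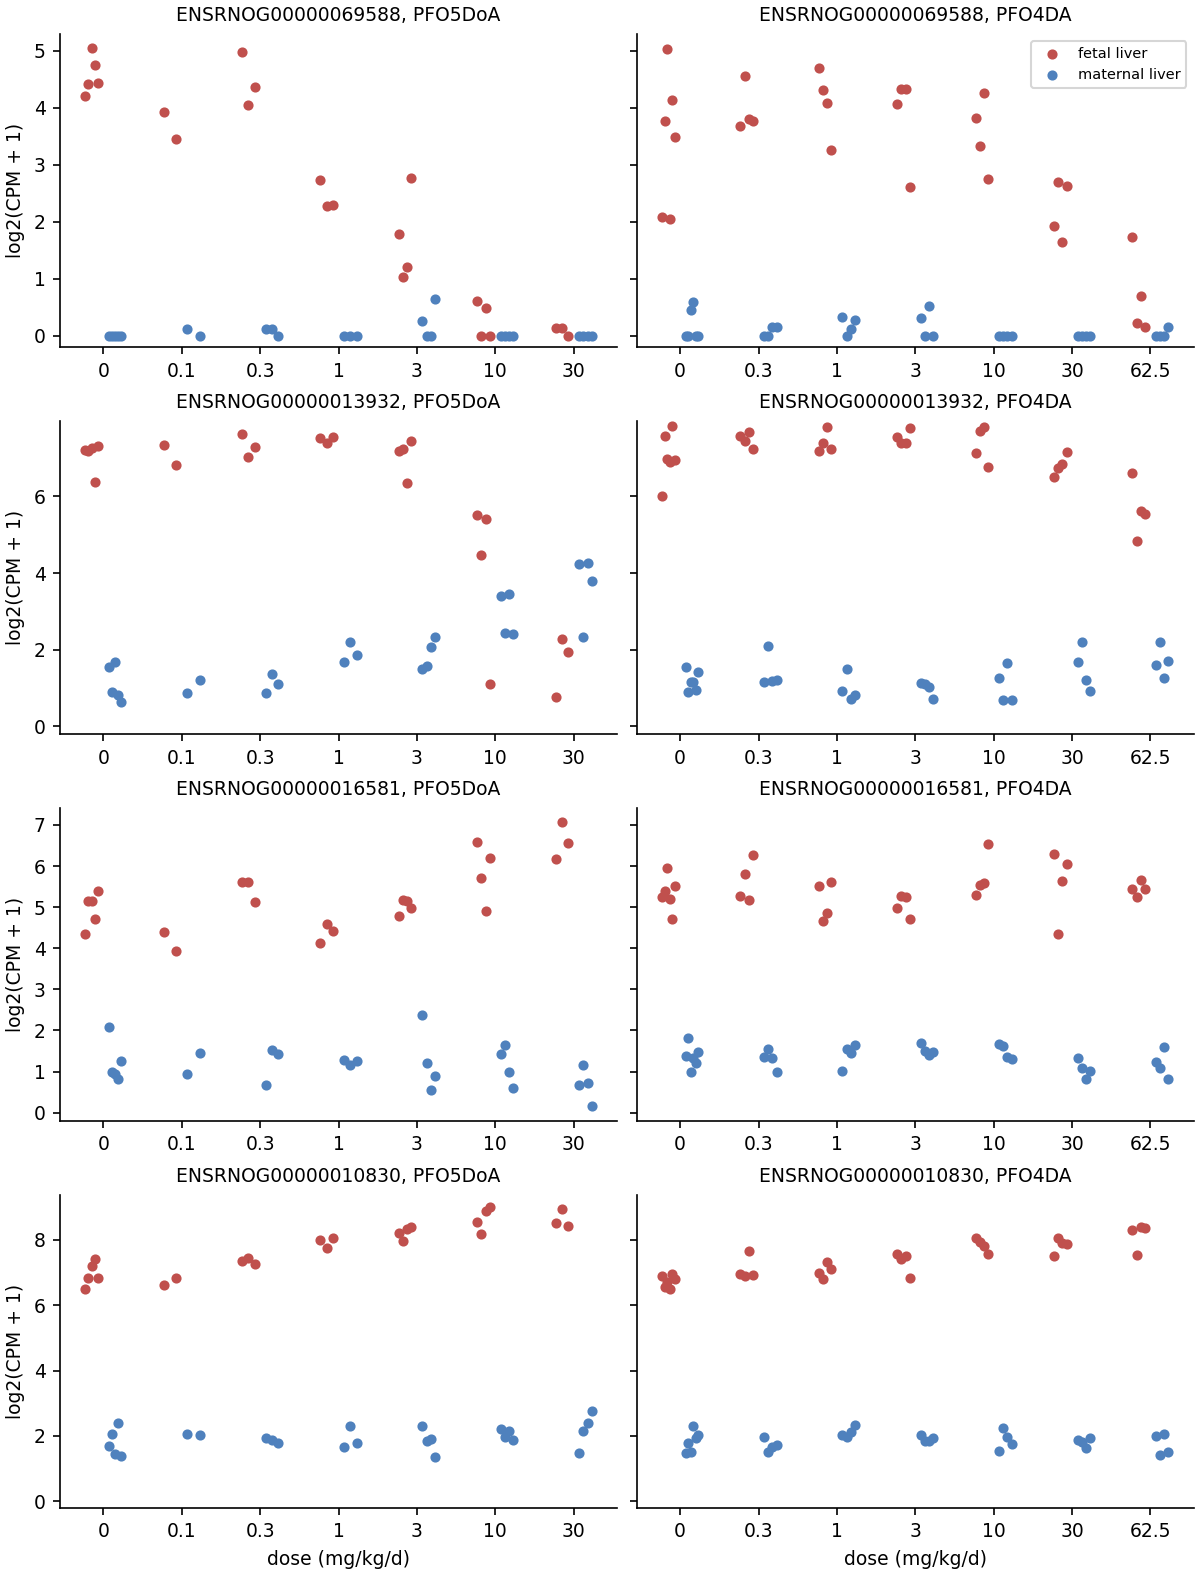
Level of the 4 genes given by identifier in every library, as log2(CPM + 1) (y axis), against dose (x axis, mg/kg/d, evenly spaced), with fetal libraries in red and maternal libraries in blue. ENSRNOG00000013932 fell in the fetus and rose in the mother under PFO5DoA, so that its stages cross between 10 and 30 mg/kg/d.

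Among the 10 genes with the largest control difference, 5 (ranks 1, 3, 4, 7 and 9) were lower in fetal liver at 30 mg/kg/d of PFO5DoA and 0 higher. The gene of rank 1, at 2732 to 4355 CPM in the PFO5DoA control fetuses, had 774.9 to 1204 CPM at 3 mg/kg/d, 442.9 to 930.9 CPM at 10 mg/kg/d and 628.6, 825.6 and 918.9 CPM at 30 mg/kg/d. All of these lay below the controls, and the edgeR log2 fold change at 30 mg/kg/d was -2.38 (SE 0.32, adjusted p = 8.23e-06). In the mothers it rose from 2.60 to 5.94 CPM in controls to 24.6, 67.3, 72.6 and 85.1 CPM in the 30 mg/kg/d dams, by 3.97 on the log2 scale (edgeR, SE 0.34, adjusted p = 7.10e-09). Under PFO4DA its fetal change was -1.33 for the 30 mg/kg/d dose and -1.96 for 62.5 mg/kg/d (SE 0.23, edgeR adjusted p = 3.05e-07), and its maternal level did not pass the test at any PFO4DA dose.

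The gene of rank 4 declined over a long dose range. Control fetuses of PFO5DoA had 280.5, 327.0, 532.4, 540.3 and 1265 CPM, and those at 1 mg/kg/d had 145.1, 152.9 and 233.3 CPM, below all controls although the change of -1.58 did not pass the test (adjusted p = 0.165). At 3 mg/kg/d the range was 24.5 to 84.6 CPM (log2 fold change -3.36, adjusted p = 7.93e-04) and at 30 mg/kg/d the levels were 5.53, 9.02 and 28.4 CPM (-5.63, SE 0.74, adjusted p = 1.22e-05). PFO4DA fetuses fell by -1.65 at 10, -2.46 at 30 and -2.87 at 62.5 mg/kg/d (SE 0.41, adjusted p = 1.20e-05). The gene of rank 3 had 393.7 to 911.8 CPM in PFO5DoA controls and 29.9, 39.2 and 121.4 CPM at 30 mg/kg/d (-3.71, SE 0.67, adjusted p = 3.31e-04), and it fell by -1.77 at 62.5 mg/kg/d of PFO4DA (adjusted p = 4.66e-04). The genes of rank 2, 5, 6, 8 and 10 had changes of 0.42, -0.12, 0.88, -0.60 and 0.28 at 30 mg/kg/d of PFO5DoA, none past the test (edgeR adjusted p 0.0532 to 0.897). Ranks 1, 3, 4, 20 and 91 were picked for description after the values of their lists were seen.

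PFO4DA moved fewer of the genes. EdgeR called 0 of 200 at 0.3, 1 and 3 mg/kg/d, where 26, 28 and 12 had an unadjusted p under 0.05, DESeq2 called 0 and all genes gave 0%, 0% and 0.304% (0.295% higher and 0.00895% lower). The 10 mg/kg/d group had 4 lower and 1 higher (2.64% of all genes called, 0.689% lower and 1.95% higher) and the 30 mg/kg/d group 11 lower and 3 higher (6.44% in all, 3.16% lower and 3.28% higher). In the 62.5 mg/kg/d group 20 were lower and 3 higher (10.6% in all, 5.93% lower and 4.71% higher). The median change at 62.5 mg/kg/d was 0.06, beside -0.01 over all genes, so the middle of the list did not move with the 20 falls. Of the 20 falls, 14 were 2-fold or more. All 11 genes lower at 30 mg/kg/d were lower at 62.5 mg/kg/d as well, again against the same controls.

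Over the 24 dosed PFO4DA fetuses, with no control in the fit, edgeR gave 24 negative and 26 positive slopes (10.8% and 8.34% of all genes, 19.1% in all). The 26 rises were shallow, with a median of 0.07 log2 units per doubling, while the falls had a median of -0.17. This split depended on the settings. Library totals without TMM gave 20 negative and 80 positive slopes (6.33% and 20.9% of all genes), the run of dams as a covariate 23 and 11, and leaving out the fetal library of dam 2320 gave 24 and 9. The negative slopes thus stayed between 20 and 24 in number in these 3 fits and the positive ones between 9 and 80. For the fit with the run and the fit without dam 2320, the shares of all genes are not given here.

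The chemicals were compared at 30 mg/kg/d, the highest dose they share. The change under PFO5DoA was below that under PFO4DA for 64 of the 200 genes and above it for 1 by edgeR's test of the difference, against 8.13% and 5.44% of the 11732 genes tested (13.6% in all), with a median difference of -0.66 beside -0.06 over all genes. Slopes over dosed dams up to 30 mg/kg/d, which use no control, were steeper downward under PFO5DoA for 78 genes and upward for 1 (8.82% and 10.1% of all genes, 18.9% in all). With the dam run of each chemical as a covariate these were 12 and 0, beside 1.69% and 1.64% of all genes. Without dam 2288 the counts of called genes were 36 for the dose (35 lower and 1 higher under PFO5DoA) and 59 for the slopes (all lower). The shares of all genes in these 2 refits are not given here. At the lower shared doses the counts, not compared by a test, were 24 lower under PFO5DoA and 4 under PFO4DA for 10 mg/kg/d, and 13 and 0 for 3 mg/kg/d. The chemicals were given to separate sets of dams and counted in separate tables, so a difference between the sets that the controls do not share cannot be told apart from one between chemicals.

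Both named falls differed between the chemicals, ENSRNOG00000069588 and ENSRNOG00000013932. At 30 mg/kg/d they were lower by -6.68 (SE 1.28, adjusted p = 2.45e-04) and -5.71 (SE 0.76, adjusted p = 7.41e-07) on the log2 scale under PFO5DoA than under PFO4DA, each relative to its controls. The gene of rank 4 differed by -3.19 (adjusted p = 0.0012) and that of rank 3 by -2.87 (adjusted p = 0.00159). For the rise of ENSRNOG00000016581 the difference was 1.11 (95% interval 0.30 to 1.91, adjusted p = 0.0639), which missed the threshold after adjustment over all genes. The genes of this paragraph were chosen for their changes at 30 mg/kg/d of PFO5DoA in the same libraries. That choice favoured a difference, so the adjusted p-values are not independent of it.

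The genes that fell with each chemical can be set side by side. In the slopes over dosed dams, which share no library, 20 genes fell with both chemicals, which is 83.3% of the 24 that fell with PFO4DA and 20.6% of the 97 that fell with PFO5DoA. Over the 10955 genes tested in both, the same shares were 53.3% of the 1181 that fell with PFO4DA and 33.7% of the 1870 that fell with PFO5DoA. With PFO5DoA 97 of the 200 fell in any case, beside 1870 of the 10955. The 83.3% and the 53.3% thus set out from unlike shares, and no closer likeness in the list is read from them. Of the 26 that rose with PFO4DA, 11 fell with PFO5DoA, 1 rose with both and 14 were not called, in a list of which 97 fell with PFO5DoA in any case. Over all genes 47 of the 919 that rose with PFO4DA (5.11%) fell with PFO5DoA. The number that rose with PFO4DA depended on the settings, as given above. As a description, the 2 sets of slopes correlated with r = 0.64 across the 200 genes and with r = 0.43 across the 10955 genes tested in both. The first value rests in part on the steepest genes, since r was 0.41 without the 5 steepest PFO5DoA falls. The PFO5DoA slope was the lower of the pair for 172 of the 200 genes, and for 49.7% of all genes tested in both.

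**Figure D4:**
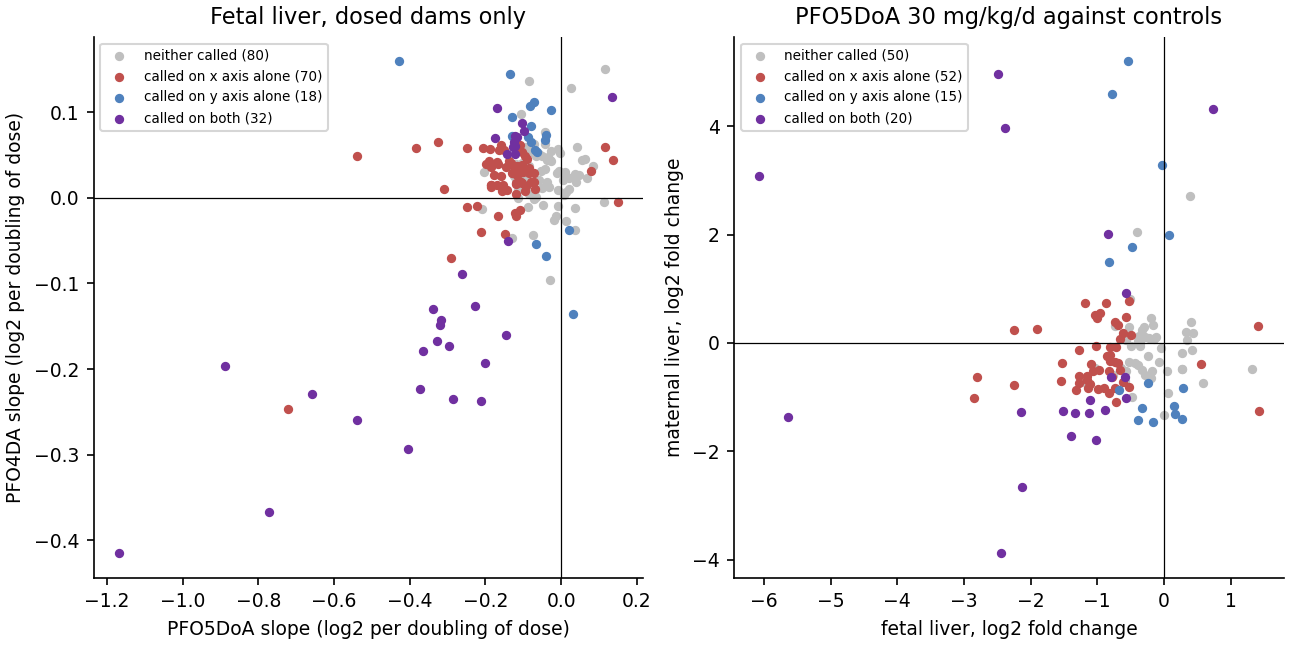
Left, slope of each of the 200 genes over dosed fetuses (log2 units per doubling of dose), PFO5DoA on the x axis and PFO4DA on the y axis; right, log2 fold change at 30 mg/kg/d of PFO5DoA in fetal (x axis) and maternal liver (y axis) for the 137 genes tested in both. Colours show which axis passed an adjusted p of 0.05: the 20 genes that fell with both chemicals form the lower left arm of the left panel, and the right panel has genes in every quadrant.

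In maternal liver many of the genes were too low to test. For PFO5DoA 137 of the 200 passed the filter on low counts and 63 did not, and for PFO4DA 127 passed. A gene near 0 in control mothers can pass that filter only through the dose groups where it is high, so the maternal counts cover a selected part of the list. Mothers given 30 mg/kg/d of PFO5DoA had 12 of the genes higher and 23 lower by edgeR (39.8% of all genes called, 19.5% higher and 20.3% lower). For 10 mg/kg/d these were 10 and 6 (14.0% in all, 6.63% higher and 7.39% lower) and for 3 mg/kg/d 2 and 0 (2.65% in all, 1.81% higher and 0.838% lower). EdgeR called 0 for 1 mg/kg/d (0.452% in all, 0.424% higher and 0.0283% lower) or 0.3 mg/kg/d (0%), where 8 and 7 had an unadjusted p under 0.05 and DESeq2 called 1 and 0. Scaling by library totals moved the split: 15 were then higher and 11 lower for 30 mg/kg/d (26.0% and 12.5% of all genes), and 13 and 2 for 10 mg/kg/d (10.4% and 3.08%). Over the dosed dams 13 slopes were positive and 14 negative among 132 genes tested (31.8% of all genes called, 17.2% positive and 14.6% negative), and library totals gave 19 and 3 (29.2% and 5.48% of all genes). Leaving out dam 2288 left 21 calls in the highest dose group, and the calls for 10 mg/kg/d ran from 9 without dam 2263 to 21 without dam 2278. Shares of all genes in these refits are not given here, so the changes are not read as particular to the list.

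Some maternal rises were steep. That of rank 20 went from 1.21 to 5.17 CPM in control mothers to 54.4, 85.7, 133.9 and 136.9 CPM at 30 mg/kg/d, 5.20 higher on the log2 scale (edgeR, SE 0.52, adjusted p = 3.05e-07). The 10 mg/kg/d dams had 1.59 to 7.64 CPM and did not pass the test. Its fetal level at 30 mg/kg/d, 420.2 to 753.7 CPM, overlapped 434.0 to 1274 CPM in control fetuses, and the fetal change of -0.53 did not pass the test. The genes of rank 23, 112 and 21 rose by 4.60, 4.31 and 3.28 in the mothers, and of these only rank 112 rose in the fetus as well (0.74, adjusted p = 0.00135). The gene of rank 32 went from 0 to 0.292 CPM in control mothers to 1.14 to 11.6 CPM at 30 mg/kg/d (edgeR log2 fold change 4.97). Being near 0 in controls, it could pass the filter on low counts only through dosed groups where it was high. No p-value is therefore given for its maternal change. Its maternal mean at 30 mg/kg/d, 4.55 CPM, was under the minimum of 5 CPM set for describing maternal changes, and it was named after its values were seen. In the fetus it fell by 2.49 (SE 0.49, adjusted p = 7.10e-04), from 52.0 to 109.5 CPM in controls to 13.7 to 21.7 CPM. The fetuses at 10 mg/kg/d had 19.6 to 155.5 CPM (mean 105.4, beside 76.95 in controls), so it did not decline steadily with dose. Its maternal mean was 5.92 CPM at 10 mg/kg/d, above that at 30 mg/kg/d.

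The steepest maternal fall was that of the gene of rank 91. Control mothers had 10.01 to 19.02 CPM and the 30 mg/kg/d dams 0.735, 1.09, 1.11 and 1.43 CPM (log2 fold change -3.88, SE 0.62, adjusted p = 6.05e-05). In the fetuses it fell from 314.2 to 710.4 CPM in controls to 58.8, 61.7 and 181.1 CPM (-2.44, SE 0.35, adjusted p = 2.02e-05), so it declined in both stages.

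Side by side at 30 mg/kg/d of PFO5DoA, 14 of the 137 genes fell in fetal and maternal liver, 5 fell in the fetus and rose in the mother, 1 rose in both and 0 rose in the fetus and fell in the mother. The 5 include the gene of rank 32, which could be tested in the mothers only through dosed groups where it was high. The gene of rank 150, also of the 5, had a median of 0.49 CPM in the control mothers of both chemicals. Whether it would pass the filter on low counts without dosed groups was not checked. A further 49 fell in the fetus and were not called in the mother, as did 767 (7.52%) of all 10201 genes tested in both stages. Over the 10201 genes tested in both stages, 772 (7.57%) fell in both, 80 (0.784%) fell in the fetus and rose in the mother, 769 (7.54%) rose in both and 85 (0.833%) did the opposite of the 80. Across the 137 genes the 2 sets of changes had r = -0.00034, beside 0.50 across the 10201, given as a description of genes that share their dams. The difference between stages was not tested, because the fetal-maternal contrast of the controls chose the genes.

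Under PFO4DA edgeR called 0 of the 127 genes tested in maternal liver at every dose, 62.5 mg/kg/d included (2.46% of all genes called there, 1.80% higher and 0.653% lower). For 30 mg/kg/d the share of all genes was 0.633% (0.614% higher and 0.0195% lower), for 10 mg/kg/d 0.00974%, all higher, and for the lower doses 0%. Over the dosed dams 0 of 124 genes were called (1.51% of all genes, 1.27% positive and 0.237% negative). Among the 127 genes at 62.5 mg/kg/d, 18 had an unadjusted p under 0.05, and DESeq2 called 3, all lower. At the other doses, from 0.3 to 30 mg/kg/d, 3, 8, 11, 13 and 6 had an unadjusted p under 0.05 and DESeq2 called 0. For the slopes these numbers were 13 and 1.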

How the data were processed

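Per gene and library, 1 table for each chemical was deposited by the authors as estimated counts (12.2% and 11.8% of values have decimals), rounded here for testing. Per the labels, sequencing was done on an Illumina instrument and analysed in Partek Flow; per the submitters' processing notes STAR 2.7.8a and the build mRatBN7.2 were used, with roles not given in the sources used here. Dose came from the dam identifier in each column name and life stage from the values, as the report states. The 200 genes, the lists and the comparisons were chosen with earlier results of these data known. EdgeR 4.0.16 in R 4.3.3 (TMM, filterByExpr, robust quasi-likelihood test) fitted all doses of a chemical and stage together, without the 2 dams at 0.1 mg/kg/d, with Benjamini-Hochberg adjustment over all genes tested. Slopes used log2 dose over dosed dams. The script was tested on simulated data. Alternatives used DESeq2 1.42.0, other scalings, filters, samples, covariates and member lists, and each library left out.

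The naming rule took the 10 largest control differences, the ranks around the boundary, the 8 largest falls and rises in fetal liver and the 5 largest in maternal liver at the highest dose (adjusted p under 0.05 and a mean of at least 5 CPM in either group), and the 5 steepest slopes; because 0 identifiers could be paired with names, only 2 that rose and 2 that fell are named. The 15 gene lists written for this work could not be applied for the same reason. No 2 libraries of a group were alike within sampling noise (lowest chi-square per degree of freedom 14.7 over 169 pairs, genes with at least 20 counts).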

Additional observations from a re-analysis of the deposited data

Results flagged for a closer look

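By the spread within a group, 11 of 113 groups of 4 or more libraries held a value far from the others, where chance flags about 1 group in 20. Dam 2293, a PFO4DA control, had the 200 genes at 27.65% of its fetal counts, where the other 5 controls had 17.3% to 21.1%. Dam 2310, also a PFO4DA control, had them at 0.615% of its maternal counts beside 0.368% to 0.415% in the others.

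Single genes stood apart in 9 groups. ENSRNOG00000069588 was at 22.59 CPM in the fetal library of dam 2297 (PFO4DA, 0.3 mg/kg/d), beside 11.8 to 13.0 CPM. In the fetal library of dam 2278, a PFO5DoA control, ENSRNOG00000013932 was at 82.66 CPM beside 144.6 to 157.8 CPM. A level of 91.56 CPM set ENSRNOG00000016581 apart in the fetal library of dam 2316 (PFO4DA, 10 mg/kg/d), where the others had 38.3 to 47.0 CPM. For ENSRNOG00000010830 the fetal library of dam 2311 (PFO4DA, 0.3 mg/kg/d) had 199.8 CPM beside 119.2 to 123.7 CPM, and that of dam 2320 (PFO4DA, 62.5 mg/kg/d) 185.9 CPM beside 315.3 to 336.3 CPM. The gene of rank 1 was at 930.9 CPM in the fetal library of dam 2276 (PFO5DoA, 10 mg/kg/d) beside 442.9 to 524.3 CPM. Dam 2264, a PFO5DoA control, had 1265 CPM of the gene of rank 4 in fetal liver beside 280.5 to 540.3 CPM. Maternal levels stood apart for the gene of rank 20 in dam 2304 (PFO4DA, 10 mg/kg/d; 8.822 CPM beside 2.50 to 2.78 CPM) and for the gene of rank 91 in dam 2314 (PFO4DA, 1 mg/kg/d; 41.42 CPM beside 7.69 to 13.0 CPM).

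The chemicals differed by a test of the difference for 65 of the 200 genes at 30 mg/kg/d and for 79 in the slopes over dosed dams. In those slopes ENSRNOG00000069588 differed by -0.89 log2 units per doubling (edgeR, adjusted p = 5.05e-05) and ENSRNOG00000013932 by -0.78 (adjusted p = 0.00348). Both genes were chosen for their falls at 30 mg/kg/d of PFO5DoA, a group that enters these slopes. What sets the libraries flagged above apart was not tested.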

How the results depend on the processing

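Of the counts of called members under other settings, 243 stayed within 1.5 times the reported count and 40 did not. Shares of all genes in the same fits are given only where stated above, so no change of a count below is read as particular to the members. RLE size factors, no filter on low counts, ranking with CPM + 5, members from the other chemical's controls and keeping the 0.1 mg/kg/d dams moved 0 counts that far, and 0 dams had a stage margin under 0.02, so that alternative left out nothing. The cause of each move below was not tested, except that the list of 100 members holds fewer genes. Single members were followed only where they were called in the reported fit, a restriction made after seeing the data: 249 values stayed past the threshold, 9 did not and 0 reversed. Library totals, the run as a covariate for all doses and dams of 1 run alone were chosen after seeing the data.

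DESeq2 called 9 members in fetal liver at 1 mg/kg/d of PFO5DoA and 8 at 10 mg/kg/d of PFO4DA. In maternal liver it called 1 and 4 at 1 and 3 mg/kg/d of PFO5DoA, 3 at 62.5 mg/kg/d of PFO4DA and 1 over its dosed dams. Library totals gave 63 (10 higher, 53 lower) at 30 mg/kg/d and 48 over dosed dams for PFO5DoA, 2 at 10 mg/kg/d and 100 (80 higher, 20 lower) over dosed dams for PFO4DA, and 37 and 38 between the chemicals at 30 mg/kg/d and in the slopes. With each dose and its controls alone, fetal PFO4DA at 3 mg/kg/d gave 1, maternal PFO5DoA at 3 and 10 mg/kg/d gave 4 and 9, and maternal PFO4DA at 62.5 mg/kg/d gave 2. The run of dams as a covariate gave 33 over dosed PFO5DoA fetuses, 3 at 10 mg/kg/d of PFO4DA, 8 over dosed PFO5DoA mothers and 12 for the slopes between chemicals. Dams of the same run alone gave 44 in fetal and 16 in maternal liver at 30 mg/kg/d of PFO5DoA and 1 in maternal liver at 62.5 mg/kg/d of PFO4DA.

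The 100 members of largest difference gave, in fetal liver, 2, 7, 13 and 44 at 1, 3, 10 and 30 mg/kg/d of PFO5DoA and 48 over its dosed dams, and 3, 8 and 13 at 10, 30 and 62.5 mg/kg/d of PFO4DA and 25 over its dosed dams. In maternal liver they gave 6, 16 and 12 at 10 and 30 mg/kg/d of PFO5DoA and over its dosed dams, and between the chemicals 29 at 30 mg/kg/d and 36 in the slopes.

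With the replicate block, 25 of 28 counts stayed within 1.5 times; it gave 2 in fetal liver at 10 mg/kg/d of PFO4DA, 1 in maternal liver at 3 mg/kg/d of PFO5DoA and 1 at 62.5 mg/kg/d of PFO4DA. Same-numbered fetal PFO5DoA libraries had a median correlation of deviations of -0.0142 (range -0.472 to 0.519), beside 0.00605 for other pairs. The medians were -0.0413 for fetal PFO4DA, 0.0391 for maternal PFO5DoA and -0.0225 for maternal PFO4DA libraries. No likeness of same-numbered libraries was thus seen at the median, which does not exclude that some are paired.

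Leaving out 1 library at a time, fetal counts ran from 1 (without dam 2272) to 6 at 1 mg/kg/d, 13 to 16 at 3, 23 to 30 at 10, 55 (without dam 2288) to 101 at 30 mg/kg/d and 71 to 110 over dosed dams of PFO5DoA. For PFO4DA they ran from 1 (without dam 2304) to 7 at 10 mg/kg/d, 10 to 16 at 30, 20 to 24 at 62.5 mg/kg/d and 33 (without dam 2320) to 61 over dosed dams. Maternal PFO5DoA counts ran from 1 to 3 at 3 mg/kg/d, 9 to 21 at 10, 21 to 34 at 30 mg/kg/d and 18 to 29 over dosed dams, and maternal PFO4DA counts from 0 to 2 at 62.5 mg/kg/d and 0 to 1 over dosed dams. Between the chemicals they ran from 36 to 77 at 30 mg/kg/d and 59 to 92 in the slopes.

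The call of ENSRNOG00000016581 over dosed PFO5DoA fetuses was also lost without the filter (edgeR adjusted p = 0.082), with the replicate block (0.0717) and in 8 fits that left out a dam, and that of ENSRNOG00000010830 with the run as a covariate (0.0877). Genes low in maternal liver limit what this depth can show: 63 of the 200 were not testable there for PFO5DoA.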
